A study of Homo sapiens with 5 samples.

Results

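Laminin-332 and the hemidesmosome were described here through 8 genes, LAMA3, LAMB3, ITGA6, ITGB4, CD151, COL17A1, PLEC and DST, chosen by name from the 15187 genes present in both deposited tables. RNA-seq was done on SAS, an established human cell line grown from a squamous cell carcinoma of the tongue. There were 3 libraries from cells with short hairpin RNA against CCT2 (shCCT2 1, 2 and 3), a gene for 1 subunit of the CCT chaperonin that folds proteins in the cytosol, and 2 libraries from cells with control hairpin (shCtrl 1 and 2). The labels give no other treatment, time or agent, and they leave unsaid how many hairpin sequences were used and whether each library is its own culture, so every p-value here reflects spread among libraries that could be purely technical. One deposited table, called set A here, held shCCT2 1, shCCT2 2 and shCtrl 1, and the other, set B, held shCCT2 3 and shCtrl 2. The series as titled concerns CCT2 in proliferation and migration, and comparisons were made within a set, knockdown over control.

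Laminin-332 is a basement membrane protein secreted by stratified epithelia. It is bound on the basal cell surface by the integrin made of the ITGA6 and ITGB4 products, which sits in the hemidesmosome with the tetraspanin CD151 and the transmembrane collagen encoded by COL17A1. On the inner side of the membrane, plectin and the epithelial form of dystonin tie this complex to keratin filaments. In carcinoma cells the same proteins also take part in adhesion and migration.

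Library totals ran from 16913585 to 18156592 counts. CCT2 itself stood at 296.1, 272.4 and 260.2 CPM (counts scaled to library size, with TMM factors) in shCCT2 1, 2 and 3, against 629.9 and 642.4 CPM in shCtrl 1 and 2, which is the direction the labels give. The 2 sets also differed from each other among libraries of the same hairpin group. The chi-square per degree of freedom over genes was 227 between the 2 controls, against 41.4 and 19.4 between shCCT2 1 or shCCT2 2 and shCtrl 1. Between shCCT2 1 and shCCT2 2 the value was 38.9, so shCCT2 2 lay nearer to shCtrl 1 than to shCCT2 1. It was 166 between shCCT2 3 and shCtrl 2, so the set B pair also lay much further apart than the pairs of set A. Of the 7 squamous epithelial markers examined, all were tested, and their summed level was 2840, 3686 and 1560 CPM in shCCT2 1, 2 and 3, against 4567 and 1034 CPM in shCtrl 1 and 2. Against the control of the same set, 5 of the 7 were lower in shCCT2 1 and in shCCT2 2 (median log2 change -0.44 and -0.18). In shCCT2 3, 6 of the 7 were higher (median 0.80) and 3 of them at least 2-fold, led by the keratin gene KRT6A at 3.27, while KRT17 stood at -1.86. The epithelial cadherin gene CDH1, whose controls lay furthest apart of the 7, was at 185.4, 212.5 and 24.9 CPM in shCCT2 1, 2 and 3, against 251.5 and 10.6 CPM in shCtrl 1 and 2. Fibroblast markers (2 of 5 tested) summed to at most 4.53 CPM in the shCCT2 libraries, against 4.04 and 11.8 CPM in shCtrl 1 and 2. Leukocyte markers (3 of 5 tested) summed to between 44.0 and 120.3 CPM in the shCCT2 libraries, against 118.0 and 61.6 CPM in shCtrl 1 and 2, most of it from CD68. Endothelial markers (2 of 5 tested) summed to between 1.26 and 3.34 CPM in the shCCT2 libraries, against 4.32 and 6.10 CPM in shCtrl 1 and 2. Markers listed in both tables but too low to test had at most 28 counts in a library, reached by LYZ in shCCT2 1. PECAM1 had at most 6 counts in the shCCT2 libraries, against 1 and 24 in shCtrl 1 and 2, and PDGFRA 0 to 6, against 8 and 10. KDR was at 0 in shCCT2 2, shCCT2 3 and shCtrl 1 and had at most 2 counts. COL1A2, COL3A1, CD3E and TEK were not listed in both tables. The part of these differences in the results below was not tested. In these bulk libraries, fewer cells of a type and less RNA per cell cannot be told apart.

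In shCCT2 3, 7 of the 8 genes stood at least 2-fold above the control of the same set and the eighth, CD151, stood at least 2-fold below it. Over all 13123 genes tested, 8.37% were at least 2-fold higher in shCCT2 3 and 13.8% at least 2-fold lower. The 8 genes were chosen with earlier results of these data known, so setting them beside all genes is a description only. In shCCT2 1 and shCCT2 2, none of the 8 genes was 2-fold higher or lower, where 0.671% and 0.472% of all genes were 2-fold higher and 3.28% and 0.61% 2-fold lower. The median log2 change of the 8 genes was 0.16 in shCCT2 1, -0.06 in shCCT2 2 and 1.34 in shCCT2 3, beside -0.0014, -0.00028 and -0.02 for all genes. Together the 8 genes took 0.296%, 0.249% and 0.824% of all counts in shCCT2 1, 2 and 3, against 0.273% and 0.336% in shCtrl 1 and 2. The widest 95% Clopper-Pearson interval, that of shCCT2 3, ran from 0.820% to 0.829%, and this and later intervals cover counting error only. ITGA6 lay closest to the 2-fold line, and without scaling factors, which moved the median of all genes in shCCT2 3 to -0.13, 6 of the 8 genes were at least 2-fold higher.

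**Figure D1:**
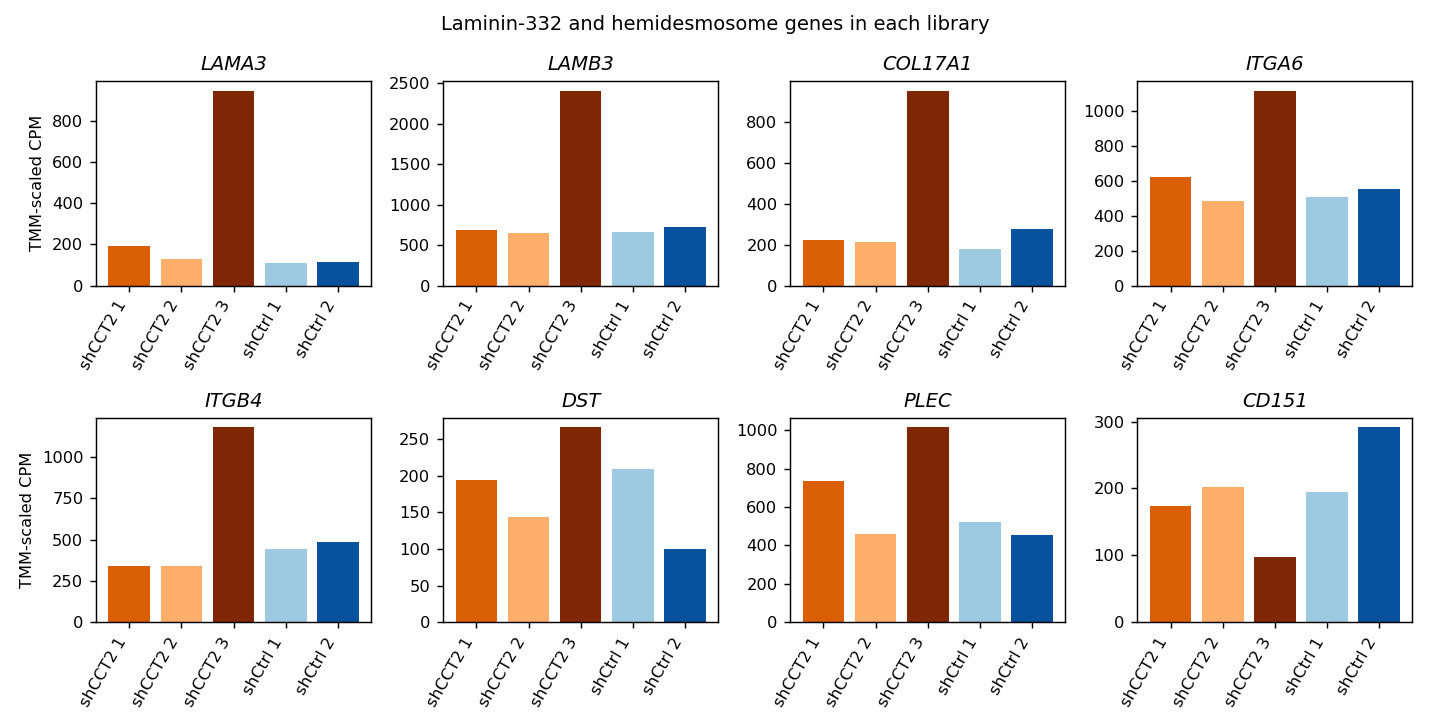
TMM-scaled CPM (bar height, linear axis from 0) of each of the 8 genes in the 3 shCCT2 and 2 shCtrl libraries. In 7 panels shCCT2 3 is the tallest bar, and in the CD151 panel it is the shortest, at 97.4 CPM.

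Fitted over both sets with the set as a term, none of the 8 genes passed edgeR's quasi-likelihood test at a Benjamini-Hochberg adjusted p under 0.05, and 0% of all genes did. CCT2 itself, the target of the hairpin, had a fitted log2 change of -1.22 ± 0.18 (SE) and did not pass either (edgeR, unadjusted p = 0.000435, adjusted p = 0.542), while DESeq2 gave it an adjusted p of 3.9e-05. DESeq2's Wald test called 0.11% of the genes it adjusted and none of the 8, whose adjusted p ran from 0.213 to 0.776. At an unadjusted p under 0.05 edgeR gave 2 of the 8 genes, LAMA3 and COL17A1, both higher, beside 7.41% of all genes, 2.83% higher and 4.57% lower. The fitted median was 0.54 for the 8 genes and -0.02 for all genes. In no gene but LAMA3 were all 3 knockdown libraries on the same side of both controls, an order that 7.97% of all genes showed upward and 8.28% downward. LAMA3 and COL17A1 were higher than the control of their own set in all 3 knockdown libraries, as were 20.2% of all genes, and none of the 8 was lower in all 3, as were 21.4%.

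**Figure D2:**
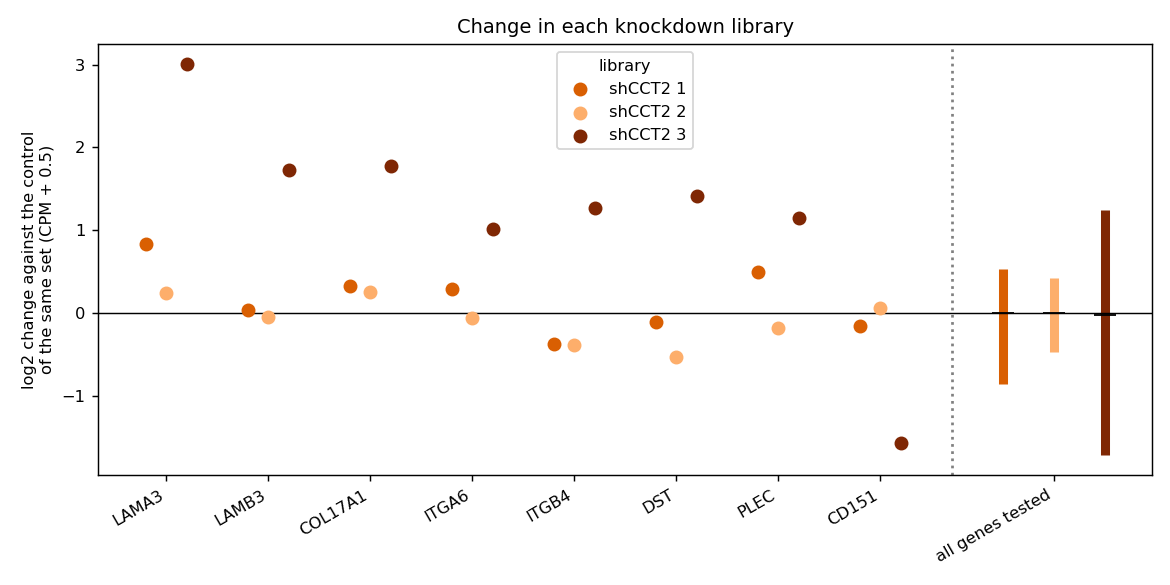
Log2 change of each gene in shCCT2 1, 2 and 3 against the control of the same set (points, CPM with 0.5 added). The bars at the right span the 5th to 95th percentile of all genes tested in each library with the median as a tick; for the 8 genes, shCCT2 3 lies between 1.01 and 3.01 apart from CD151 at -1.57.

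LAMA3 encodes the alpha chain and LAMB3 the beta chain of laminin-332. LAMA3 stood at 192.5, 128.5 and 946.9 CPM in shCCT2 1, 2 and 3, against 108.2 and 116.7 CPM in shCtrl 1 and 2. All 3 knockdown libraries were above both controls, which lay close together, and shCCT2 3 stood far above the other 4 libraries. The fold was 1.78, 1.19 and 8.11 in shCCT2 1, 2 and 3, with counting intervals (95%) of 1.68 to 1.88, 1.12 to 1.26 and 7.76 to 8.48. In shCCT2 3 only 0.213% of genes had a larger change, and in shCCT2 1 the change of LAMA3 exceeded that of 98.8% of genes. The fitted log2 change was 1.53 ± 0.57 (SE, 3 shCCT2 and 2 shCtrl libraries) and did not pass (edgeR, adjusted p = 0.542). It was 0.57 without shCCT2 3 or without shCtrl 2, and 3.05 without shCtrl 1.

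LAMB3 stood at 681.6, 642.9 and 2405 CPM in shCCT2 1, 2 and 3, against 666.6 and 727.1 CPM in shCtrl 1 and 2. In set A shCCT2 1 lay between the controls and shCCT2 2 just below both, and shCCT2 3 lay above all others, 3.31-fold over shCtrl 2 (counting interval 3.24 to 3.37). The log2 change in shCCT2 1 was 0.03 with TMM and -0.013 without scaling factors, so its sign there depends on the scaling. The fitted log2 change was 0.69 ± 0.39 (SE; edgeR, adjusted p = 0.542), and it was -0.0093 without shCCT2 3 and -0.010 without shCtrl 2.

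Within a library, the ratio of LAMA3 to LAMB3 counts does not depend on scaling. It was 0.282, 0.200 and 0.394 in shCCT2 1, 2 and 3, against 0.162 and 0.161 in shCtrl 1 and 2. The 2 controls thus held nearly the same balance of the 2 chains, and all 3 knockdown libraries had more LAMA3 per LAMB3 than either. The lowest of the knockdown values had a counting interval of 0.191 to 0.209, above the 0.171 and 0.168 at which the intervals of shCtrl 1 and 2 ended. Whether this is more than the spread between replicates was not tested, with 1 control in each set. How many other gene pairs show this order was not computed.

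Upstream sequence is shown for LAMA3, LAMB3 and COL17A1, the 3 genes with the highest folds in shCCT2 3. Each line gives the 250 bases before a transcript start in RefSeq on GRCh38.p14, 5′ to 3′ on the strand of the gene. Capitals mark matches on either strand to the AP-1 motif TGANTCA or to CAGGTG, the E-box bound by factors of the Snail family. The TEAD motif CATTCC and the GC box GGGCGG were also searched and are not marked. They were in 9.98% and 63.1% of the windows of all genes tested. RefSeq windows were found for 5 of the 8 genes (LAMA3, LAMB3, COL17A1, ITGA6 and DST), in 10 windows, and of 3 LAMB3 starts the one whose window held TGANTCA is printed, picked for that match.
LAMA3, chr18:23872770-23873019, plus strand: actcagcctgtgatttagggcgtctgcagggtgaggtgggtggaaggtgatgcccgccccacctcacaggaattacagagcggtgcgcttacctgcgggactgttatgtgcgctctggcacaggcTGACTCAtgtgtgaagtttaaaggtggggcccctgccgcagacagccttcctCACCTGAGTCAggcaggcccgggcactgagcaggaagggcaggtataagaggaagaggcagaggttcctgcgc
LAMB3, chr1:209651375-209651624, minus strand: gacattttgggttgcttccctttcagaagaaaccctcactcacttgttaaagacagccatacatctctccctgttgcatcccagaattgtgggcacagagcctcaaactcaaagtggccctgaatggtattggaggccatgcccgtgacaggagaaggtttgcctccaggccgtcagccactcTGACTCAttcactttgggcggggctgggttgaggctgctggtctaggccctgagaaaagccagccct
COL17A1, chr10:104085881-104086130, minus strand: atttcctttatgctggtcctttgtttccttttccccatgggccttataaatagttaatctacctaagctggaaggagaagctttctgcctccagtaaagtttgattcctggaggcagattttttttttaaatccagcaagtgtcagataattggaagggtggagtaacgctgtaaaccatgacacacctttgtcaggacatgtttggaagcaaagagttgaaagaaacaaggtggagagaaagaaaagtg
The LAMA3 window held 2 matches to TGANTCA, whose first bases lay 125 and 69 bases before the start, and the second overlapped a match to CAGGTG beginning 73 bases before it. The printed LAMB3 window held 1 match to TGANTCA, 67 bases before the start, and the COL17A1 window held neither motif. TGANTCA was in 2 of the 10 windows and in 4.60% of 15603 such windows of the genes tested, and CAGGTG was in 3 of the 10 and in 16.4% of all windows. These matches describe letters only, and which start was used in SAS cells was not measured.

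ITGA6 and ITGB4 encode the alpha and beta subunits of the laminin-332 receptor of hemidesmosomes. ITGA6 stood at 621.5, 486.2 and 1116 CPM in shCCT2 1, 2 and 3, against 508.7 and 552.8 CPM in shCtrl 1 and 2. The 2 controls lay between shCCT2 2 and shCCT2 1, and shCCT2 3 was the highest library, 2.02-fold over shCtrl 2 (counting interval 1.97 to 2.07). The fitted log2 change was 0.49 ± 0.27 (SE; edgeR, adjusted p = 0.542), and it was 0.12 without shCCT2 3 or without shCtrl 2 and 1.04 without shCtrl 1. ITGA6 shares 2.66% of its annotated exon bases with an uncharacterised antisense gene and 1.91% with ITGA6-AS1, and no source used here says whether counting took account of strand.

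ITGB4 stood at 340.6, 337.7 and 1178 CPM in shCCT2 1, 2 and 3, against 441.5 and 487.4 CPM in shCtrl 1 and 2. In set A both knockdown libraries were below both controls and at nearly the same level as each other, at folds of 0.771 and 0.765 over shCtrl 1, while shCCT2 3 was 2.42-fold over shCtrl 2 (counting interval 2.36 to 2.48). The change of ITGB4 exceeded that of only 18.5% and 7.38% of genes in shCCT2 1 and 2, and of 95.4% in shCCT2 3. The fitted log2 change of 0.29 ± 0.37 (SE; edgeR, adjusted p = 0.734) averages these opposite directions, and it was -0.38 without shCCT2 3 or without shCtrl 2 and 1.30 without shCtrl 1.

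The ratio of ITGB4 to ITGA6 counts was 0.548, 0.695 and 1.06 in shCCT2 1, 2 and 3, against 0.868 and 0.882 in shCtrl 1 and 2. The controls held nearly the same balance for this pair, and the knockdown libraries lay below them in set A and above them in set B. CD151 encodes a tetraspanin that binds laminin-binding integrins at the cell surface. It stood at 173.5, 202.3 and 97.4 CPM in shCCT2 1, 2 and 3, against 194.0 and 291.1 CPM in shCtrl 1 and 2. The groups overlapped, and shCCT2 3 was the lowest library, at 0.335 of the level of shCtrl 2 (counting interval 0.317 to 0.353). Over both sets CD151 had a fitted log2 change of -0.73 ± 0.37 (SE; edgeR, adjusted p = 0.542). It was -0.046 without shCCT2 3, -0.047 without shCtrl 2 and -1.55 without shCtrl 1.

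CD151 counts per ITGA6 count were 0.279, 0.416 and 0.0873 in shCCT2 1, 2 and 3, against 0.381 and 0.527 in shCtrl 1 and 2. The value of shCCT2 3 was thus 0.166 of that of its control, the furthest shift of the 5 partner ratios computed. CD151 shares 6.53% of its annotated exon bases with POLR2L on the opposite strand. POLR2L, a subunit of RNA polymerase II, was at 114.4, 93.2 and 60.1 CPM in shCCT2 1, 2 and 3, against 106.8 and 38.7 CPM in shCtrl 1 and 2, so in set B it differed in the direction opposite to CD151.

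**Figure D3:**
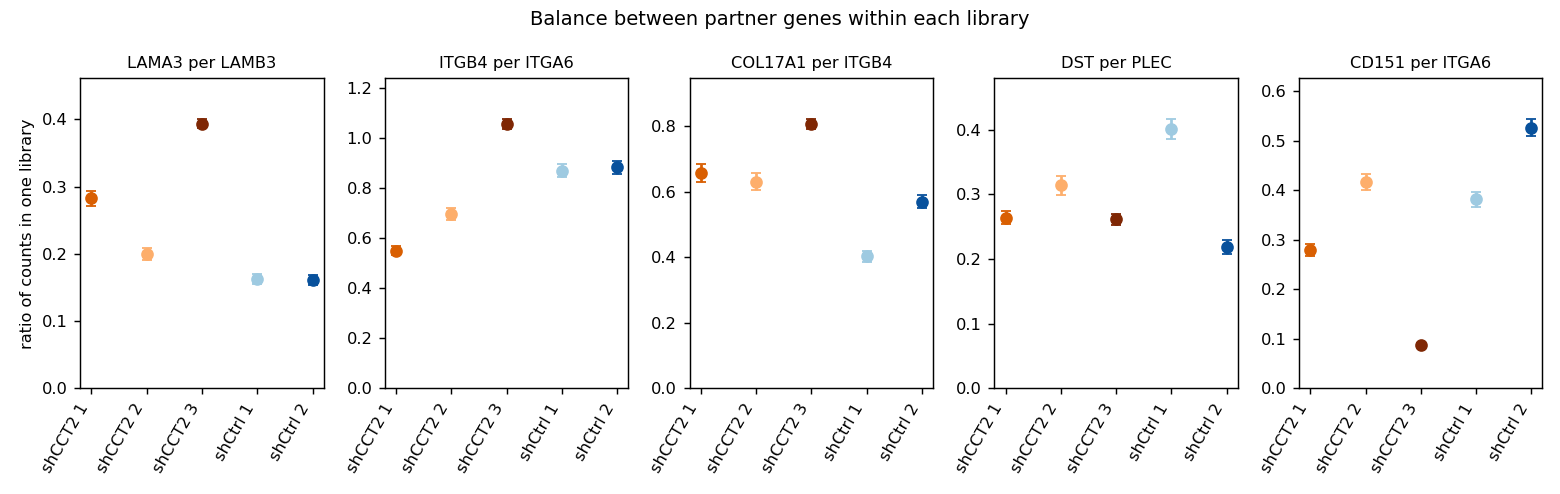
Ratio of the counts of 2 partner genes within each library (points, linear axes from 0), with 95% counting intervals. The LAMA3 to LAMB3 and ITGB4 to ITGA6 ratios of the 2 shCtrl libraries coincide, and CD151 per ITGA6 is lowest in shCCT2 3 at 0.0873.

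COL17A1 encodes the transmembrane collagen XVII, which joins the laminin layer to the inner plaque. It stood at 224.0, 213.0 and 950.2 CPM in shCCT2 1, 2 and 3, against 178.1 and 277.5 CPM in shCtrl 1 and 2. The knockdown libraries of set A lay between the 2 controls, and shCCT2 3 lay 3.42-fold above shCtrl 2 (counting interval 3.32 to 3.53). In set A the folds were 1.26 and 1.20, and the fitted log2 change was 0.90 ± 0.35 (SE; edgeR, adjusted p = 0.542). Without shCCT2 3 it was 0.30, without shCtrl 2 it was 0.29, and without shCtrl 1 it was 1.81. COL17A1 counts per ITGB4 count were 0.658, 0.631 and 0.807 in shCCT2 1, 2 and 3, against 0.403 and 0.569 in shCtrl 1 and 2. All 3 knockdown values were above both controls, with folds of 1.63, 1.56 and 1.42 over the control of the same set, the narrowest range among the 5 ratios. No test of this ratio was run, and the share of other gene pairs with this order was not computed.

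PLEC encodes plectin and DST encodes dystonin, members of the plakin family that link hemidesmosomes to keratin filaments. PLEC stood at 734.1, 458.8 and 1015 CPM in shCCT2 1, 2 and 3, against 521.2 and 456.5 CPM in shCtrl 1 and 2. shCCT2 1 and 3 were above both controls and shCCT2 2 lay between them, and the fold in shCCT2 3 was 2.22 (counting interval 2.17 to 2.28). Fitted over both sets, PLEC differed by 0.59 ± 0.32 on the log2 scale (SE; edgeR, adjusted p = 0.542), by 0.19 without shCCT2 3 or without shCtrl 2, and by 1.18 without shCtrl 1.

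DST stood at 193.6, 144.0 and 265.6 CPM in shCCT2 1, 2 and 3, against 209.1 and 99.6 CPM in shCtrl 1 and 2. It was the gene of the 8 whose controls differed most, by -1.07 on the log2 scale (shCtrl 2 minus shCtrl 1). Its fold was 2.67 in shCCT2 3 (counting interval 2.53 to 2.81) and 0.926 and 0.689 in shCCT2 1 and 2. shCtrl 2 was the lowest of the 5 libraries. On the log2 scale shCCT2 3 stood only 0.34 above the highest of the other libraries, beside 2.30 for LAMA3. The fitted log2 change of DST was 0.39 ± 0.40 (SE; edgeR, adjusted p = 0.674), and it was -0.31 without shCCT2 3 or without shCtrl 2. DST has several transcript forms, of which only one belongs to the hemidesmosome, and the counts do not separate them. DST counts per PLEC count were 0.264, 0.314 and 0.262 in shCCT2 1, 2 and 3, against 0.401 and 0.218 in shCtrl 1 and 2. Here the controls lay further apart than in the other 4 ratios, and all 3 knockdown values lay between them.

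PLEC, DST and LAMA3 have long principal transcripts in GENCODE 29, of 15249, 17756 and 10661 bases. Position of reads along transcripts differed between libraries: the last 20% of windows held 13.8%, 15.3% and 14.1% of reads in shCCT2 1, 2 and 3, against 16.7% and 15.2% in shCtrl 1 and 2, and which transcript end these windows are is not stated. The median log2 change of the 948 genes with transcripts of at least 8000 bases was 0.10, -0.02 and -0.02 in shCCT2 1, 2 and 3. Of these long genes, 1.05%, 0.211% and 7.28% were at least 2-fold higher in shCCT2 1, 2 and 3, beside 0.671%, 0.472% and 8.37% of all genes. The share of long genes was thus above that of all genes in shCCT2 1 and below it in shCCT2 2 and 3. The part of transcript length in the changes was not tested.

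Levels were compared between genes as CPM per kilobase of the principal transcript, although no source used here names the annotation behind the counts. The scale depends on the transcript form taken for length, and the counts do not separate forms. Ranks between genes, those of LAMA3 and DST included, hold for these lengths only. On that scale LAMB3 stood at 158.3, 149.3 and 558.6 in shCCT2 1, 2 and 3, against 154.8 and 168.9 in shCtrl 1 and 2, above at least 96.6% of genes in every library. DST was the lowest of the 8 in shCCT2 1, 2 and 3, at 10.9, 8.11 and 15.0 CPM per kilobase, and in shCtrl 2, at 5.61. In shCtrl 1 LAMA3 was lowest, at 10.2 CPM per kilobase against 11.8 for DST. LAMA3 lay above 94.1% of genes in shCCT2 3 but above only 54.3% and 56.2% in shCtrl 1 and 2. In shCtrl 2 CD151 was the highest of the 8, at 175.6 CPM per kilobase.

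Whether the change differed between the 2 sets could be fitted only with shCCT2 1 and shCCT2 2 as replicates, since every other combination of set and hairpin holds 1 library. The difference, the change in set B minus the change in set A, was fitted with a set by hairpin term. It was 2.45 ± 0.43 on the log2 scale for LAMA3, 1.74 ± 0.28 for LAMB3, 1.72 ± 0.37 for DST, 1.65 ± 0.29 for ITGB4 and 1.48 ± 0.29 for COL17A1 (SE, 5 libraries). PLEC had 0.96 ± 0.47 and ITGA6 0.89 ± 0.34, and CD151 had -1.53 ± 0.32. None passed (edgeR, Benjamini-Hochberg adjusted p from 0.125 to 0.350), and 0% of all genes did. At an unadjusted p under 0.05 there were 7 of the 8 genes, all but PLEC, beside 17.2% of all genes. With DESeq2's size factors or with no filter on low counts, ITGA6 also missed that threshold (edgeR, unadjusted p = 0.0710 and 0.0688). The share of all genes under that threshold was not computed for these settings. The adjusted p of the 8 there ran from 0.296 to 0.466 (edgeR). The fit had 1 residual degree of freedom, and the set, the replicate and any difference in culture cannot be told apart.

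**Figure D4:**
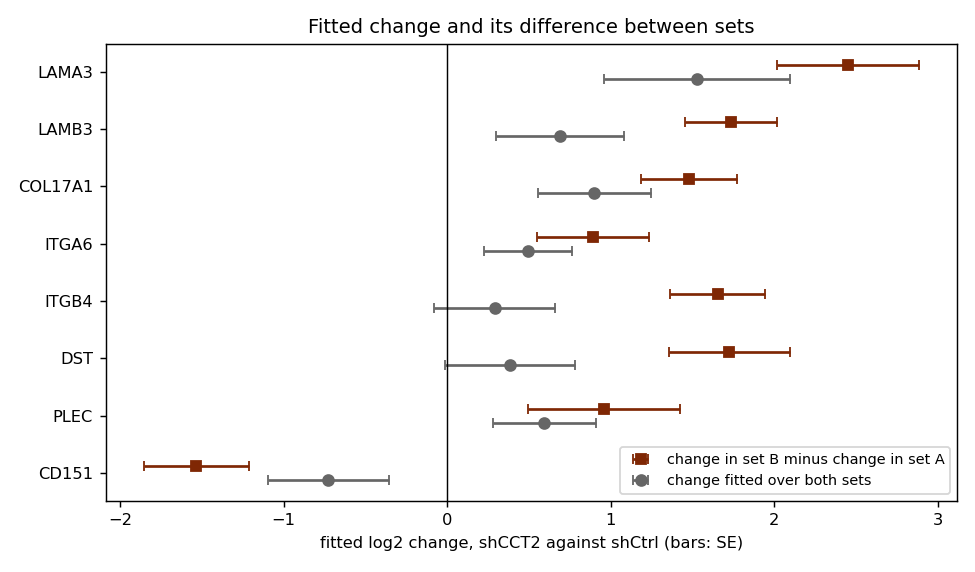
Fitted log2 change of shCCT2 against shCtrl over both sets (circles) and the difference between the sets (squares), with SE as bars. For LAMA3 the set difference of 2.45 exceeds the fitted change of 1.53, and for CD151 both lie below 0.

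The 5-library profiles of the 8 genes were compared by the Euclidean distance between log2 levels centred on the mean of each gene. Other genes entered only if their mean CPM was at or above the median of the genes tested. Genes below that median were not compared. LAMB3 lay 0.44 from COL17A1 and 0.45 from ITGB4, with 0.259% of 6554 other genes nearer to LAMB3 in each case. ITGA6 lay 0.39 from PLEC, with 2.24% of genes nearer to ITGA6. Some pairs lay further apart. ITGA6 and ITGB4 were at 0.73, with 13.9% of genes nearer to ITGA6. DST lay nearest to PLEC of the 8, at 0.66. Shares of 24.4%, 24.0%, 23.9% and 15.8% of genes lay nearer than DST to COL17A1, ITGB4, ITGA6 and LAMB3, and 8.59% to LAMA3. For each of the other 7, at least 86.9% of genes lay nearer to it than CD151 did. Among genes outside the 8, the nearest to LAMA3 were CDC45, a DNA replication factor, at 0.68, and PMEPA1, a target and inhibitor of TGF-beta signalling, at 0.78. The nearest to LAMB3 were TSTA3, an enzyme of GDP-fucose synthesis, at 0.25 and MIS18A, a centromere factor, at 0.27. SPECC1L and C11orf58 were nearest to COL17A1 at 0.38 and 0.43, and MROH6 and MALL were nearest to ITGB4 at 0.21 and 0.25. PSMC3, a proteasome ATPase, lay 0.056 from ITGA6 and ISCA1 lay 0.076 from it. DNAJC11 and PFAS were nearest to PLEC at 0.13 and 0.17, MDFI and SETD1B were nearest to DST at 0.28 and 0.32, and PDIA5 and LMAN1, both of the secretory pathway, were nearest to CD151 at 0.21 and 0.22.

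Genes related to these structures were read from the same fit, and none of them passed edgeR's adjusted threshold or DESeq2's. Of 8 other laminin chains, 7 were tested, with 4 higher and 3 lower fitted values and medians of -0.08, 0.08 and -0.21 in shCCT2 1, 2 and 3. LAMB2, a beta chain, was at 107.1, 119.1 and 114.1 CPM in shCCT2 1, 2 and 3, against 112.8 and 322.9 CPM in shCtrl 1 and 2. The fitted log2 changes of LAMA5, LAMC1 and LAMA1 were -0.19 ± 0.19, 0.13 ± 0.18 and 0.32 ± 0.45 (SE).

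Of 10 other laminin receptors and tetraspanins, 2 had higher and 8 lower fitted values, and the medians were -0.13, 0.01 and -0.12 in shCCT2 1, 2 and 3. SDC4, a heparan sulfate proteoglycan of adhesion sites, was at 627.5, 704.7 and 805.4 CPM in shCCT2 1, 2 and 3, against 539.7 and 338.4 CPM in shCtrl 1 and 2. All its knockdown libraries were above both controls, and the fitted log2 change was 0.70 ± 0.26 (SE; edgeR, adjusted p = 0.542). ITGB1, the beta subunit of the other laminin-binding integrins, was at 565.7, 534.0 and 735.7 CPM in shCCT2 1, 2 and 3, against 509.2 and 1643 CPM in shCtrl 1 and 2, so in set B it was lower where ITGB4 was higher. The tetraspanin genes CD81 and CD9 had fitted changes of -0.35 ± 0.20 and -0.40 ± 0.24 (SE).

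Of 13 basement membrane partners, 10 were tested, with 3 higher and 7 lower fitted values. Their medians were 0.15, 0.26 and -0.82 in shCCT2 1, 2 and 3, so in shCCT2 3 this list and the 8 hemidesmosome and laminin genes, at 1.34, had opposite signs. COL7A1, which encodes the anchoring fibril collagen beneath hemidesmosomes, was at 120.0, 127.6 and 182.1 CPM in shCCT2 1, 2 and 3, against 94.7 and 100.7 CPM in shCtrl 1 and 2. All 3 knockdown libraries were above both controls, and the fitted log2 change was 0.58 ± 0.19 (SE; edgeR, adjusted p = 0.542). COL4A6, a type IV collagen chain, had 0.98 ± 0.31 and HSPG2, which encodes perlecan, had -0.41 ± 0.23. NID1, which encodes nidogen-1, was measurable in set B alone, at 9.12 CPM in shCCT2 3 against 69.5 CPM in shCtrl 2, and was at most 0.119 CPM in set A.

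Of 8 proteases listed for the processing of laminins and collagens, 7 were tested, with 1 higher and 6 lower fitted values and medians of -0.45, -0.01 and -0.33 in shCCT2 1, 2 and 3. MMP14, a membrane-bound metalloproteinase, was at 279.3, 354.9 and 139.2 CPM in shCCT2 1, 2 and 3, against 383.0 and 270.0 CPM in shCtrl 1 and 2, and its fitted change was -0.57 ± 0.24 (SE; edgeR, adjusted p = 0.542). MMP2 and ADAM9 had -0.46 ± 0.21 and 0.34 ± 0.20, and ADAMTS2, at most 0.98 CPM in set A, had -1.32 ± 0.53. Of 9 plakins, keratins and anchors, 4 had higher and 5 lower fitted values, with medians of 0.09, -0.15 and 0.16 in shCCT2 1, 2 and 3. In shCCT2 3, 2 of the 9 were at least 2-fold higher and 1 at least 2-fold lower. KRT5, the basal keratin to which hemidesmosomes attach, was at 913.5, 1332 and 298.0 CPM in shCCT2 1, 2 and 3, against 1943 and 257.9 CPM in shCtrl 1 and 2, with a fitted change of -0.38 ± 0.30 (SE). FERMT1, which encodes kindlin-1, was at 155.6, 124.3 and 125.4 CPM in shCCT2 1, 2 and 3, against 134.8 and 43.5 CPM in shCtrl 1 and 2. The desmosomal plakin gene DSP and the plakin gene PPL had fitted changes of 0.45 ± 0.30 and -0.41 ± 0.19. In shCCT2 3 their log2 changes were 1.13 and -0.39.

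**Figure D5:**
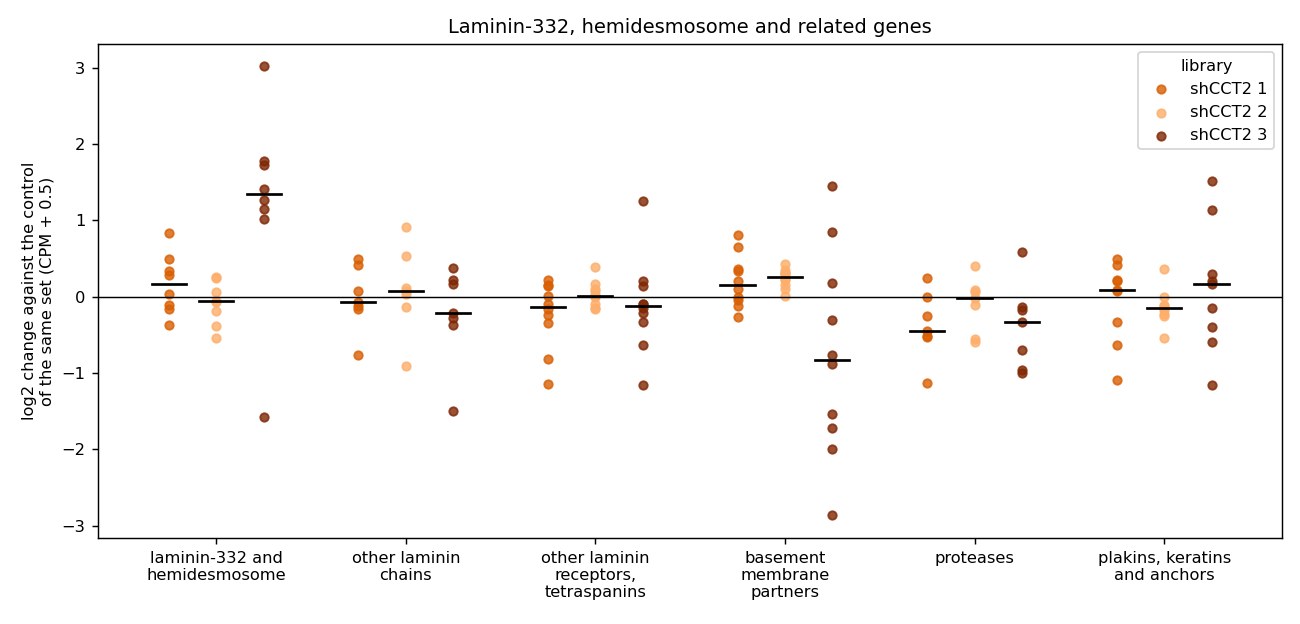
Log2 change of each gene (points) in shCCT2 1, 2 and 3 against the control of the same set, for the 8 laminin-332 and hemidesmosome genes and 5 related lists; black ticks are medians. In shCCT2 3 the median is 1.34 for the 8 genes and -0.82 for the basement membrane partners.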

How the data were processed

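The authors deposited estimated counts (expected counts) per gene in 2 tables, headed read counts per the file headers, in which 86.2% to 87.9% of values per library were whole. They also deposited, for each library, a signal of reads in 201 windows of relative transcript position, per the file headers. STAR 1.5.1, HTSeq and mm10 are named, without a role, in the submitters' processing notes. Gene identifiers are those of human genes, so build, annotation and strand setting are taken as not given. Libraries were made from oligo(dT)-selected mRNA with random hexamers, per the labels' protocols.

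Joining both tables by gene identifier left 15187 genes; 763 genes found just in set A and 1032 found just in set B were left out, and counts were rounded. The fit used the quasi-likelihood test of edgeR 4.0.16 (R 4.3.3) with TMM scaling, edgeR's low-count filter and the set beside the hairpin as a term, adjusted over all 13123 genes by Benjamini-Hochberg. The fit was also run on simulated counts. These were drawn at a common dispersion with no difference between sets, so that run does not cover the set differences seen here. SE is the fitted change divided by the square root of F. Log2 changes of single libraries add 0.5 CPM. Counting intervals are exact binomial (Clopper-Pearson), conditional on the sum of 2 counts. Alternatives included DESeq2 1.42.0, other scalings and filters, and leaving out each library.

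The 8 genes and all lists were chosen with earlier results of these data known. Named genes were the 8, the 4 of each list with the smallest p, the 2 profiles nearest to each of the 8, CCT2, and cell type markers where values beside the results needed them. KRT6A, KRT17, CDH1, CD68, LYZ, PECAM1, PDGFRA, KDR and POLR2L were singled out after their values were seen. Not every gene of the laminin-332 trimer is reported here. Promoter windows come from RefSeq (GRCh38.p14), and transcript lengths and exon overlaps from GENCODE 29. No pair of libraries was a copy: the lowest chi-square per degree of freedom was 19.4.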

Additional observations from a re-analysis of the deposited data

Results flagged for a closer look

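ITGB4 and DST were picked out because both knockdown libraries of set A lay below their control while the knockdown library of set B lay above its own. For ITGB4 the change in set B minus the change in set A was 1.65 on the log2 scale, with log2 changes of -0.37, -0.39 and 1.27 in shCCT2 1, 2 and 3. For DST it was 1.72, with -0.11, -0.54 and 1.41 on the same scale. Since the opposite signs picked these genes, the difference was not tested independently here, and each value rests on 1 pair of libraries in set B.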

How the results depend on the processing

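Of 112 values of the 8 genes under 14 alternatives, 100 kept their direction, 12 reversed and 0 passed the threshold. These values are not independent checks, because the alternatives overlap. Without shCCT2 3 or without shCtrl 2, set B has no comparison, and the fit nearly repeats that of set A alone. Without shCtrl 1, only the set B pair compares the hairpins. The direction of LAMA3, ITGA6, PLEC and CD151 held under all 14. With the replicate number as a block in place of the set, LAMB3 was -0.073, COL17A1 -0.025 and ITGB4 -0.45. No control shares the number of shCCT2 3, so the block leaves that library no part in these values. They rest on shCCT2 1 against shCtrl 1 and on shCCT2 2 against shCtrl 2, the latter across sets. The block called 0 genes, as did the fit without it. Same-numbered libraries deviated together for number 1 (r = 0.69) and apart for number 2 (r = -0.60). With 2 controls, their deviations are equal and opposite by construction. Number 1 lies within set A and number 2 spans both sets, so these signs cannot show whether the numbers pair the libraries. In set A alone, LAMB3 was -0.0088, ITGB4 -0.38 and DST -0.31, since the set B pair is then left out. Leaving out 1 library gave -0.010 to 1.76 for LAMB3, -0.38 to 1.30 for ITGB4 and -0.31 to 1.45 for DST, and 0 to 2 genes called among all genes. DESeq2 called 13 genes; the cause was not tested. The last 10% of windows, a smaller share by construction, held 4.76%, 5.29% and 4.66% of reads in shCCT2 1, 2 and 3, against 6.09% and 5.27% in shCtrl 1 and 2. Depth sets the width of the counting intervals, and the effect of a lower depth was not tested.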
